A study of Mus musculus with 108 samples.

Results

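The replication-dependent histone genes were examined as a group of 67 genes among the 21938 protein-coding genes of the mouse annotation. They were taken by name, as every protein-coding gene of GENCODE vM21 (mm10) whose symbol began with Hist1h, Hist2h, Hist3h or Hist4. The group held 6 genes of the linker histone H1, 18 of H2A, 18 of H2B, 12 of H3 and 13 of H4. A reporter fragment was counted at a gene when it overlapped the window from 1000 bp before to 1000 bp after the annotated start, so every gene was read over the same length. In all, 1402 of 1176477 distinct reporter fragments of the sorted cells lay in these windows, and they were listed 2539 times among 2287458 entries.

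Replication-dependent histone genes supply the core and linker histones that package newly made DNA. They are transcribed mainly in S phase, under the co-activator NPAT at the histone locus body, and their mRNAs end in a stem-loop bound by SLBP in place of a poly(A) tail. They stand in clusters, often as an H2A gene and an H2B gene that are read in opposite directions from a shared promoter. Here the question was which pieces of these promoters were recovered from a reporter screen, at which stage of blood cell development and from which level of reporter activity.

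The screen used HM-1 cells, a single mouse ES cell line, which were differentiated in vitro in serum. All sorted cells carried a reporter at the Hprt locus, in which a genomic fragment released by Tn5 from open chromatin stood before the HSP68 minimal promoter and the Venus-YFP gene, so the lists report on fragments outside their own locus. The stages were undifferentiated ES cells (ES), FLK1+ hemangioblast cells (HB), the first (HE1: KIT+ TIE2+ CD41-) and the second stage of hemogenic endothelium (HE2: KIT+ TIE2+ CD41+) and hematopoietic progenitors (HP: KIT+ TIE2- CD41+). YFP fluorescence set the sorting gates, Negative, Low, Medium and High for replicates 1 to 4 of each stage. Replicate 5 had a joint Medium/High gate beside Negative and Low, and in all there were 95 sorted libraries (19 per stage). There were also 5 lists of the cloning vector pDONR, 5 of the reporter vector pSKB, each named by its source stage, and 3 control lists from HM-1 cells without a reporter library. No expression values were analysed here, so the stage labels were not checked against marker genes. The labels do not tie replicates to separate differentiations, so p-values measure only the spread between these samples, which may be technical.

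The sorted libraries listed between 504 and 131035 fragments, and replicates 1 and 2 held most of them. At least 1 histone window fragment was found in 81 libraries and none in the other 14. Of the HE1 libraries, Medium replicate 2 shared 102 of its 137 histone window fragments with Negative replicate 1, and Low replicate 4 shared 15 of its 26 with Negative replicate 3. Without these 4 libraries are also given the HE1 totals, the differences of HE1 from its neighbouring stages, the single-gene tests at HE1, and the HE1 values of the genes described one by one. Other HE1 values include them.

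The sequence before the start is shown for the H1, H2A, H2B and H4 genes with the most listed fragments, because these are the promoters the screen sampled most. Each line gives 250 bases, 5′ to 3′ on the strand of the gene, ending just before the RefSeq start (RefSeq sequence, GRCm38.p6). Capitals mark the motifs searched. The CCAAT box reads ATTGG on the other strand. The TATA box was searched as TATAAA, the octamer as ATTTGCAT and the AC box as AAACACA, each on both strands. The H3 gene with the most fragments was Hist1h3a.
Hist1h1c, chr13:23738557-23738806, plus strand: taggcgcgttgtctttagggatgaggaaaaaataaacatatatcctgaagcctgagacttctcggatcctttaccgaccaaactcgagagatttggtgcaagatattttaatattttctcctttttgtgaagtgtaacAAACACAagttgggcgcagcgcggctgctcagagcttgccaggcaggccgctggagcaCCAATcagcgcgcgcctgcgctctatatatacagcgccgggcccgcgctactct
Hist3h2a, chr11:58954435-58954684, plus strand: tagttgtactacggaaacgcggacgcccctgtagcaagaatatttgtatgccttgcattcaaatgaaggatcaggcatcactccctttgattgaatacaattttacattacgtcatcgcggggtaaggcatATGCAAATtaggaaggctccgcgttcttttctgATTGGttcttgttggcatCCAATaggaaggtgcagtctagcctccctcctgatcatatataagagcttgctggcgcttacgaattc
Hist1h2bk, chr13:22035571-22035820, plus strand: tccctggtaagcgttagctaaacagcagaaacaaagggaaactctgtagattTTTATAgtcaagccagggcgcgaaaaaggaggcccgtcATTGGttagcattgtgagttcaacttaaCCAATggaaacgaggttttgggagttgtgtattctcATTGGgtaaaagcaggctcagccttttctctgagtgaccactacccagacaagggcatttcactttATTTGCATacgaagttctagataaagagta
Hist1h4a, chr13:23761250-23761499, minus strand: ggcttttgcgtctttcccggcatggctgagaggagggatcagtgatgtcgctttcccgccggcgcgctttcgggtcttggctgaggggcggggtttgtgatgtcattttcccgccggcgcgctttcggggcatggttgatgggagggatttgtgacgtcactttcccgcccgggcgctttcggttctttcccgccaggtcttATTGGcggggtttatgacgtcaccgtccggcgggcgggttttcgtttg
The next sequences belong to genes that the lists treated differently. Hist1h2bq had no listed fragment at any stage and its 300-base promoter was identical to that of Hist1h2br. Hist1h2an and Hist2h2bb had fragments at ES, HE1 and HE2 and none at HB or HP.
Hist1h2bq, chr13:21810200-21810449, minus strand: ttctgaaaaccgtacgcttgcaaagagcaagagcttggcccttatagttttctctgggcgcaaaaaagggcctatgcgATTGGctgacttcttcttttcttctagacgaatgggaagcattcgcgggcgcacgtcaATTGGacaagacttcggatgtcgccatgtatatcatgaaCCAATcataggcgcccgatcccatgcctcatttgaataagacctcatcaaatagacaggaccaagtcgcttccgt
Hist1h2an, chr13:21787249-21787498, minus strand: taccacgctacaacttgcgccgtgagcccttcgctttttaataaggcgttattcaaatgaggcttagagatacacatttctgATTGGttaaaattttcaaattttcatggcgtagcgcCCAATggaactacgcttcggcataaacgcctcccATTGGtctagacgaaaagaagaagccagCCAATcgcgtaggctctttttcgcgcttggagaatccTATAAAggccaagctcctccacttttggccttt
Hist2h2bb, chr3:96269450-96269699, plus strand: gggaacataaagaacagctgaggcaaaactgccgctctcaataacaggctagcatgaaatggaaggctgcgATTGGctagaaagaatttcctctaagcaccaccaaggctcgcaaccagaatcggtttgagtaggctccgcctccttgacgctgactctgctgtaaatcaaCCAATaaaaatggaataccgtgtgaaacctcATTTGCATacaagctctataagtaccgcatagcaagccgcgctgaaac
The last sequence is the histone window fragment found in the most libraries, near Hist1h3g, read from the plus strand of mm10.
Hist1h3g, chr13:23535173-23535253, plus strand: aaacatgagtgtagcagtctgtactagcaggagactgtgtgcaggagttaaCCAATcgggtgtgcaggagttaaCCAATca

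RefSeq promoters (250 bases before to 50 after the start) were matched for 61 of the 67 genes. The CCAAT box, bound by NF-Y, was present in 52 of them (85.2%), against 37.4% of all 32851 promoters of the table. All 5 H1, 18 H2A, 16 H2B and 10 H3 promoters held it, but only 3 of 12 H4 promoters did. The TATAAA form of the TATA box was found in 34 promoters (55.7%, against 13.6% of all promoters), most often in the H4 family (8 of 12). The octamer ATTTGCAT, the site of POU-domain factors such as OCT1, was found in 7 of 18 H2A and 6 of 16 H2B promoters and in none of the matched H1, H3 or H4 promoters (1.74% of all promoters). AAACACA, the AC box of linker histone genes, was found in 4 of 5 H1 promoters, in Hist1h1b, Hist1h1c, Hist1h1e and Hist1h1t but not in Hist1h1a (7.18% of all promoters). It was also found in 2 of 18 H2A and 2 of 16 H2B promoters and in none of the matched H3 or H4 promoters. No match of one motif overlapped a match of another. The 32851 promoters were used without a filter for protein-coding genes, so they are a wider set than the one the group came from. Genes of a divergent pair can share matches, and a match describes letters in this window only.

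**Figure D1:**
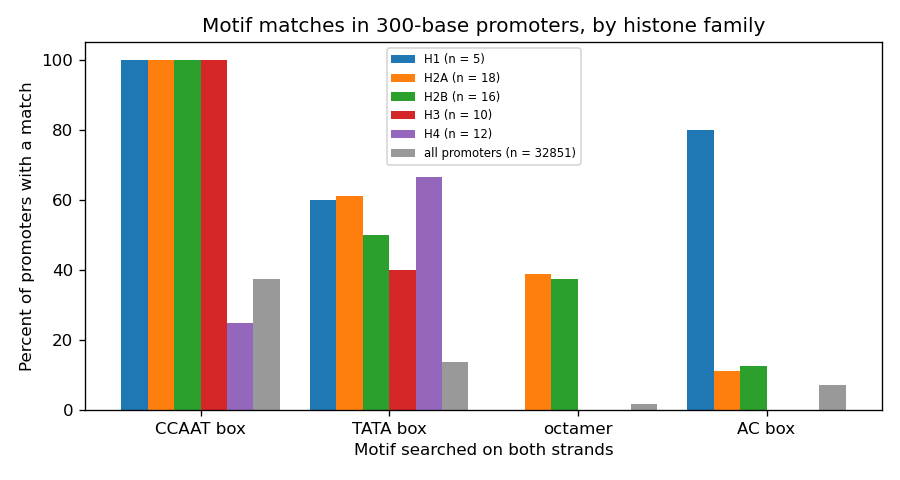
Percent of 300-base promoters with a match to each motif (y axis), for 4 motifs (x axis), with a bar for each histone family and a grey bar for all promoters of the table. The CCAAT box reaches 100% in the H1, H2A, H2B and H3 families and 25% in the H4 family, and the octamer appears in the H2A and H2B families only among the histone families.

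The genes lay in 5 groups of starts. On chromosome 13 the Hist1 genes formed 2 stretches, with 23 genes at chr13:21716143-22043214 and 31 genes at chr13:23531050-23934462. The 10 Hist2 genes lay at chr3:96219865-96269752, the pair Hist3h2ba and Hist3h2a at chr11:58948920-58954685, and Hist4h4 at chr6:136804415. The 67 windows merged into 38 separate regions, since many starts were close. In 13 pairs of neighbours the genes were read away from each other with at most 1000 bp between the starts, and 12 of these joined an H2A and an H2B gene at 176 to 306 bp. Such pairs, among them Hist1h2ah and Hist1h2bk, Hist1h2ak and Hist1h2bn, and Hist1h2an and Hist1h2bp, had nearly the same fragments and are not independent.

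The genes of this group held a median of 26 distinct listed fragments, with a highest value of 103, and all protein-coding genes held a median of 15. The mean went the other way, at 30.4 against 36.3. Fewer genes of the group had no fragment (16.4% against 36.0%). Among genes with any fragment, the group was lower in the median, at 39 against 42, and in the mean, at 36.3 against 56.8. Hist1h4a led with 103 fragments in 59 libraries, and its neighbour Hist1h3a, whose window overlaps, had 95 in 58 libraries. They were followed by Hist1h3g with 85 and by Hist4h4, the only gene of the group at its locus, with 83. The median was 15 fragments for H1, 23.5 for H2A, 37.5 for H2B, 30.5 for H3 and 23 for H4, so the families overlapped widely.

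Among the H1 genes, Hist1h1c had 62 fragments, Hist1h1a and Hist1h1e 19 each, and Hist1h1b 11. The leading H2A genes were Hist3h2a with 62, Hist1h2ah with 61 and Hist1h2ad with 51. The leading H2B genes were Hist1h2bk with 61 and Hist1h2bb and Hist1h2bf with 51 each. In the H3 family Hist1h3e followed Hist1h3a and Hist1h3g with 63, and in the H4 family Hist1h4c and Hist1h4d followed Hist1h4a and Hist4h4 with 40 each.

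Outside the Hist1 locus, Hist4h4 and Hist3h2a had the most fragments, and the other genes had 35 or fewer. The median was 15.5 in the Hist2 cluster, against 26 and 40 in the 2 Hist1 stretches. Hist3h2ba had 12 fragments. In the Hist2 cluster, Hist2h2bb had 35, Hist2h3b 20, Hist2h2ac and its partner Hist2h2be 17 each, Hist2h4 16, Hist2h2ab 15 and Hist2h2aa2 8. The testis histone genes, which are active in male germ cells, were almost empty: Hist1h2aa and Hist1h2ba shared 1 fragment, found in 1 ES library, and Hist1h1t had none.

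**Figure D2:**
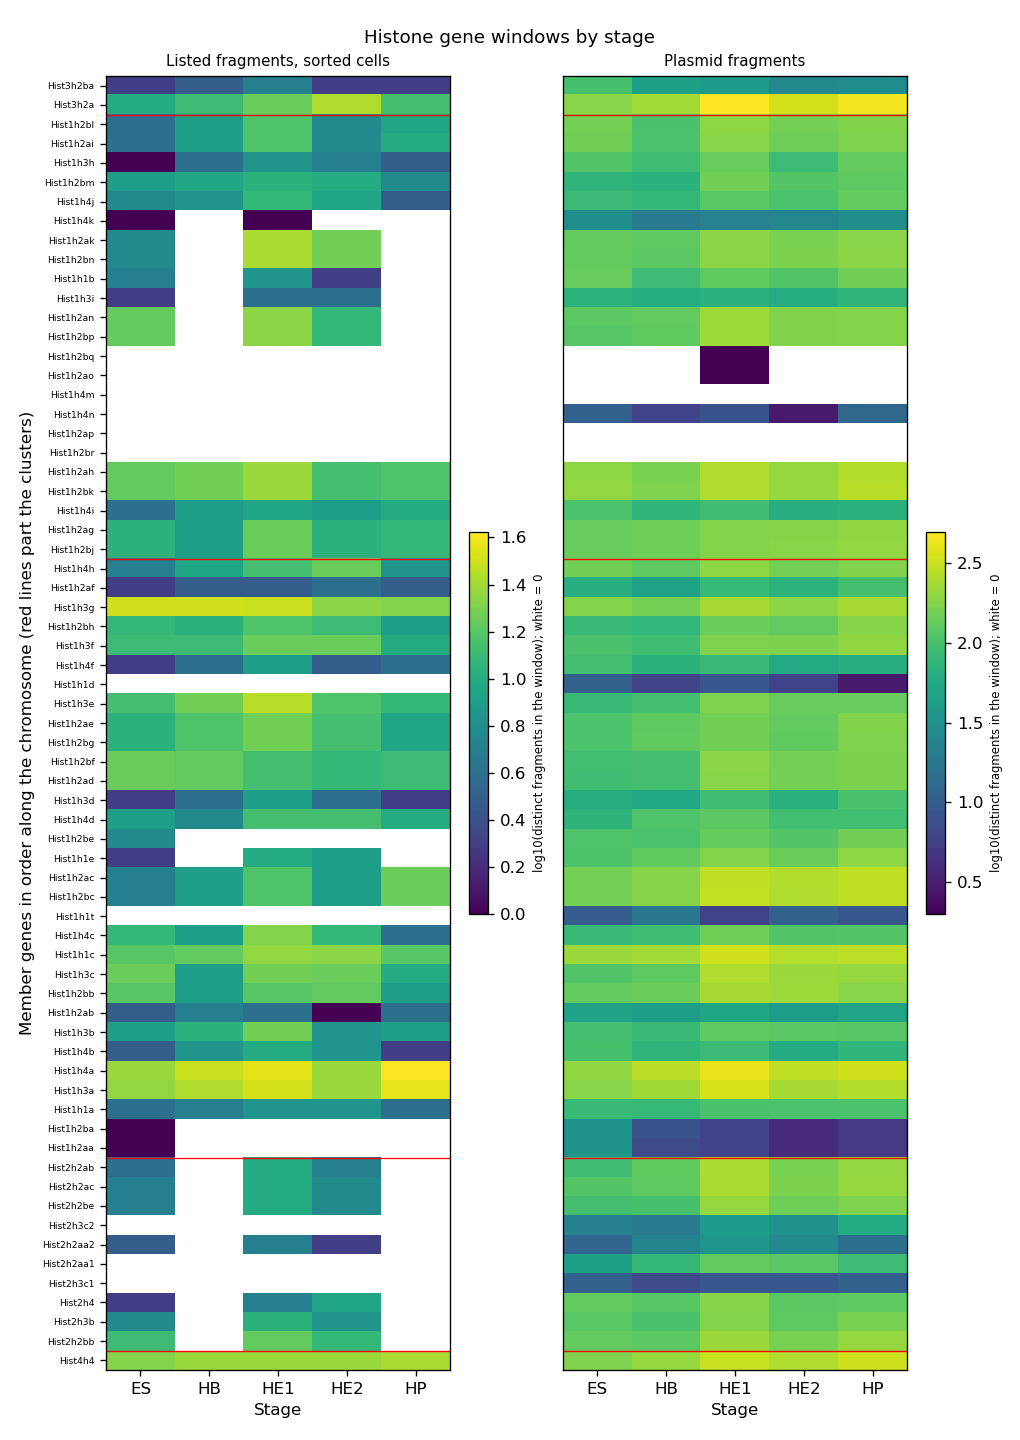
Distinct fragments in the window of each of the 67 histone genes (rows, in order along each cluster) at each stage (columns), on a log10 colour scale with white for 0, in the sorted libraries (left) and in the plasmid lists named by that stage (right). The Hist2 rows and a run of Hist1 rows are white at HB and HP on the left and filled on the right.

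A set of genes had fragments listed at ES, HE1 and HE2 and at no other stage. Of the 50 genes of the group with at least 10 distinct fragments, 12 (24%) had this pattern, against 2.01% of all 11953 genes with as many fragments (240 genes). The other 38 had fragments at all 5 stages, as did 91.3% of all genes with at least 10. The 12 genes were Hist1h2ak and Hist1h2bn, Hist1h1b, Hist1h2an and Hist1h2bp, Hist1h1e, and the Hist2 genes Hist2h2ab, Hist2h2ac, Hist2h2be, Hist2h4, Hist2h3b and Hist2h2bb, in 7 separate regions. They were singled out after their values were seen, so no test is given.

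Pooled over libraries, the 12 genes made up 1.64 of 10000 listed fragments at ES (Wilson 95% interval 1.28 to 2.11), 2.06 at HE1 (1.74 to 2.43, and 2.11 without the libraries that share fragments) and 1.85 at HE2 (1.5 to 2.29). At HB they had 0 of 417740 listed fragments and at HP 0 of 378924, which allow up to 0.0718 and 0.0792 per 10000. The intervals and limits cover counting error only. These genes were found in 14 of 19 ES, 12 of 19 HE1 (8 of 15 without those that share fragments) and 10 of 19 HE2 libraries, and in none of 38 HB and HP libraries, of the Negative gate or of any positive gate.

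The cloned material of HB and HP did hold these promoters. The plasmid lists contained 891 distinct fragments in the 12 windows at HB and 1312 at HP, beside 922 at ES, 1437 at HE1 and 1107 at HE2. Hist1h2an, for example, had 131 plasmid fragments at HB and 178 at HP, and Hist2h2bb had 123 and 205. These counts join the cloning vector pDONR and the reporter vector pSKB, and were not split by vector at each stage. Over all stages, pDONR held 774 distinct fragments at Hist1h2an and pSKB 189, and at Hist2h2bb they held 777 and 177. As a group, the 42 genes with fragments and any other pattern were listed at every stage, with 11.2 of 10000 fragments at ES, 10.6 at HB, 9.55 at HE1, 8.55 at HE2 and 9.24 at HP.

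Genes with no fragment at HB and HP were often neighbours. On chromosome 13, Hist1h4k, Hist1h2ak, Hist1h2bn, Hist1h1b, Hist1h3i, Hist1h2an and Hist1h2bp follow each other in the order of starts, and on chromosome 3 they took in every Hist2 gene with any fragment. Hist1h3i with 9 fragments and Hist2h2aa2 with 8 had the pattern of the 12 genes but fell below the minimum of 10, and Hist1h4k had 2 fragments, seen at ES and HE1. Hist1h2be, next to Hist1h1e, was listed at ES only, with 6 fragments, although its window held between 103 and 151 plasmid fragments at every stage. According to the methods, the lists had been limited to peaks of open chromatin. The sources used here do not say whether those peaks were stage by stage, and the part of this step in the gap was not tested.

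In single replicates the counts behind the gap were small. In positive ES cells Hist1h2an had 4, 5, 2, 1 and 0 fragments in replicates 1 to 5, and in positive HE1 cells 10, 6, 0, 5 and 0, or 10, 3, 0, 0 and 0 without the libraries that share fragments. In positive HE2 cells it had 6, 5, 0, 0 and 1, and it had 0 in all 5 replicates of HB and of HP. Of the Hist2 genes, Hist2h2bb had 0, 6, 4, 1 and 0 fragments in positive ES cells, 8, 3, 0, 0 and 1 in positive HE1 cells (8, 0, 0, 0 and 1 without those libraries) and 7, 3, 0, 0 and 0 in positive HE2 cells. The 2 deepest replicates carried most of both genes at HE1 and HE2.

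No listed fragment was found for 11 of the 67 genes (16.4%), against 36.0% of all protein-coding genes. These were Hist1h2ao, Hist1h2ap, Hist1h2bq, Hist1h2br, Hist1h4m, Hist1h4n, Hist2h2aa1, Hist2h3c1, Hist2h3c2, Hist1h1d and Hist1h1t. The first 9 have windows with less than 50% unique sequence. In the windows of Hist1h2ao, Hist1h2ap, Hist1h2bq and Hist1h2br no stretch of 70 bases was unique among the mm10 chromosomes, and the unique share was 10.2% for Hist1h4m, 12.4% for Hist1h4n, 23.8% for Hist2h3c1, 24.7% for Hist2h3c2 and 48.1% for Hist2h2aa1. The promoters of Hist1h4m and Hist1h4n differed at 1 of 299 compared bases, and those of Hist2h3c1 and Hist2h3c2 at 1 of 285.

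Of the 10 genes with less than 50% unique sequence, 9 had no fragment and Hist2h2aa2 had 8. Of the other 57 genes, 2 had none, Hist1h1d and Hist1h1t, both with fully unique windows. For Hist1h1d the window did not cover the RefSeq start, which lies 1770 bp after the GENCODE start. Within 1000 bp of that RefSeq start (chr13:23555032) there were 36 distinct fragments, found in 37 libraries and at all 5 stages. The authors kept read pairs of high mapping quality, and pairs that fit several places equally well get a low one, but the part of this step in the empty windows was not tested. Plasmid fragments were also scarce at most of these genes. The 10 plasmid lists held 2 distinct fragments at Hist1h2bq and Hist1h2ao, none at Hist1h4m, Hist1h2ap and Hist1h2br, 40 at Hist1h4n and 47 at Hist2h3c1. Hist2h2aa1 was different, with 421 plasmid fragments and no listed one, and Hist2h3c2 had 171. Hist1h1d had 35 and Hist1h1t 53.

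**Figure D3:**
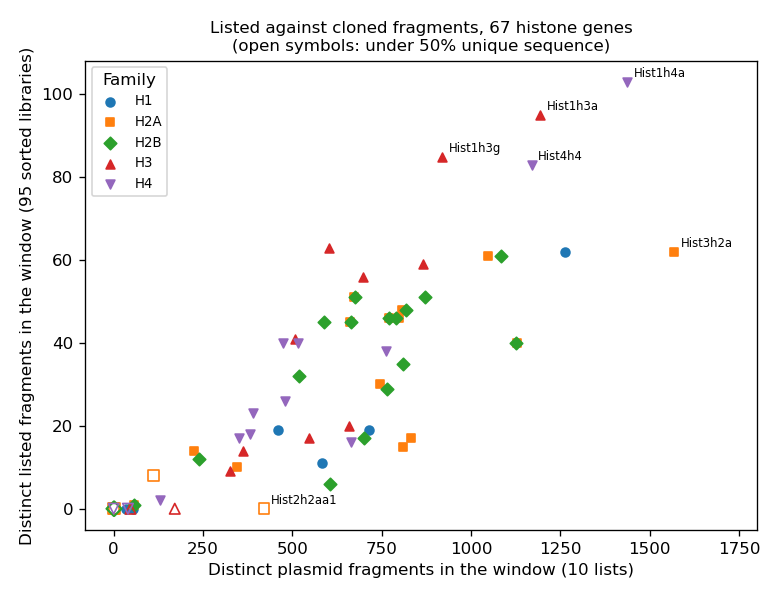
Distinct fragments listed in the sorted libraries (y axis) against distinct fragments in the plasmid lists (x axis) for each of the 67 histone genes, by family, with open symbols for windows with less than 50% unique sequence. Genes with more cloned fragments tended to have more listed ones, which is partly built in by the filter against the plasmid lists. Hist2h2aa1 stands at 0 listed with 421 cloned fragments.

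Across the 67 genes, the number of listed fragments went with the number of plasmid fragments (Spearman's rho 0.84, Pearson's r 0.84, given as a description over genes, which share libraries and partly windows). According to the methods, sorted fragments were kept only if an identical plasmid fragment existed, so such a relation is partly built in. Over the 57 genes with at least 50% unique sequence, rho was 0.77. Hist1h4a had 1438 plasmid fragments, Hist1h3a 1194, Hist4h4 1170 and Hist1h3g 919. Hist3h2a had the most, 1569, with 62 listed. Hist1h2ac and Hist1h2bc had 1128 and 1126, with 40 listed.

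All histone window fragments came from the promoter lists and none from the distal lists. The paper counts as distal only sites farther from a start than these windows reach, so this largely follows from the definitions. Their median length was 208.5 bp, against 205 bp for all fragments. An identical plasmid fragment existed for 84.0% of the 2539 listed entries (83.5% of all entries), and a plasmid fragment with both ends within 5 bp for 96.5% (97.1%). The methods state that an identical one was required, and why some entries lacked it was not tested. In HE1 Negative replicate 3 only 11.1% of histone entries matched (13.6% of all its entries). In HE1 Low replicate 4 it was 15.4% (25.4%). These libraries, which share fragments, had 26.3 and 22.5 histone window fragments per 10000. Only 8 entries, of 2 distinct fragments, were also in the HM-1 control lists (0.315%, against 0.680% of all entries).

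Their centres gathered at the start. The median centre lay 3.75 bp before the nearest histone gene start, with an interquartile range from 106 bp before to 127 bp after it. The 300 bp before the start held 43.1% of the centres and the 300 bp after it 38.4%. For all protein-coding genes these shares were 39.5% and 41.0%, with a median of 18 bp after the start.

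**Figure D4:**
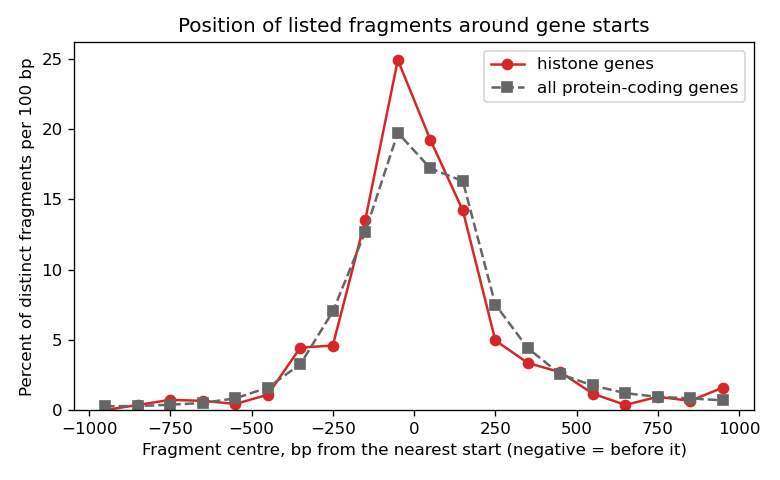
Percent of distinct listed fragments per 100 bp (y axis) by the distance of the fragment centre from the nearest gene start (x axis, negative before the start), for the histone genes and for all protein-coding genes. Both curves peak in the 100 bp before the start, at 24.9% for histone genes and 19.7% for all genes.

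Most histone fragments were rare: 59.6% of the 1402 were listed in 1 library only (56.1% of all distinct fragments), and 2 were found in positive cells of all 5 stages (0.143%, against 0.311% of all). The fragment in the most libraries, shown above, was 81 bp long with its centre 209 bp before the start of Hist1h3g, and was found in 10 positive and 2 Negative libraries of 4 stages. A pair of fragments that overlap it, at chr13:23535184-23535283 and chr13:23535195-23535301, were found in 11 libraries each. A fragment of Hist1h2bk (chr13:22035835-22036022), one of Hist1h2bb (chr13:23746250-23746489) and one of Hist1h4a (chr13:23761467-23761546) also reached 11 libraries.

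Positive and Negative cells of one stage shared a minority of their fragments, at histone genes and over all fragments. At HP, 9 of the 248 histone fragments of positive cells were also listed in Negative cells (3.63%, against 11.8% of all positive fragments). At HE2 the share was 5.99% (8.31% of all), at ES 14.4% (15.6%), at HB 17.0% (16.6%) and at HE1, with its shared libraries, 30.7% (33.5%).

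Whether histone promoters were more frequent in cells with reporter activity was asked by comparing the positive set of each replicate, which joins all its gates above Negative, with its Negative list. At HE2 the positive sets held 10.4, 11.6, 11.4, 8.19 and 25.8 histone window fragments per 10000 listed fragments in replicates 1 to 5, and the Negative sets 9.13, 10.8, 0, 6.54 and 0. The means were 13.5 ± 7.0 and 5.29 ± 5.06 (SD, n = 5), and the positive set was higher in 5 of 5 replicates (p = 0.0556 by an exact permutation test, two-sided, and 0.139 after adjustment over 5 stages). At HP the positive sets held 9.72, 10.4, 8.67, 21.4 and 13.4 per 10000 and the Negative sets 8.89, 4.55, 5.08, 10.1 and 0. The means were 12.7 ± 5.16 and 5.72 ± 3.99 (SD, n = 5), again with the positive set higher in 5 of 5 replicates (exact permutation test, p = 0.0397, adjusted p = 0.139). Neither difference passed the threshold of 0.05 after adjustment.

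Several of these sets were shallow. At HE2 the Negative sets of replicates 3 and 5 had 0 fragments of 720 and 1111, which allow up to 41.7 and 27 per 10000, and the positive set of replicate 5 rested on 4 fragments. In the deeper replicate 1 the Wilson 95% interval was 9.13 to 11.9 for the positive set and 6.47 to 12.9 for the Negative set, and pooled over all libraries HE2 had 10.7 positive and 9.67 Negative fragments per 10000. At HP the gap was seen in replicate 2, at 10.4 (8.19 to 13.1) against 4.55 (2.80 to 7.39), while the intervals overlapped in replicate 1, at 9.72 (8.43 to 11.2) against 8.89 (6.30 to 12.5). With fragments identical to a plasmid fragment only, the HP means were 14.9 and 3.98 per 10000 and the adjusted p was 0.0397 (exact permutation test, n = 5).

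At the other stages the means of positive and Negative sets were close beside their spread. They were 9.83 ± 5.71 and 9.76 ± 6.68 at ES, 9.33 ± 3.33 and 8.57 ± 2.45 at HB and 14.3 ± 5.52 and 15.4 ± 6.67 at HE1 (SD, n = 5, exact permutation test, adjusted p = 0.984, 0.952 and 0.952). Without the HE1 libraries that share fragments, the HE1 means were 11.6 in positive and 13 in Negative sets (n = 5 and 3, exact permutation test, adjusted p = 0.853). Whether the difference between positive and Negative cells differed between stages was not tested.

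**Figure D5:**
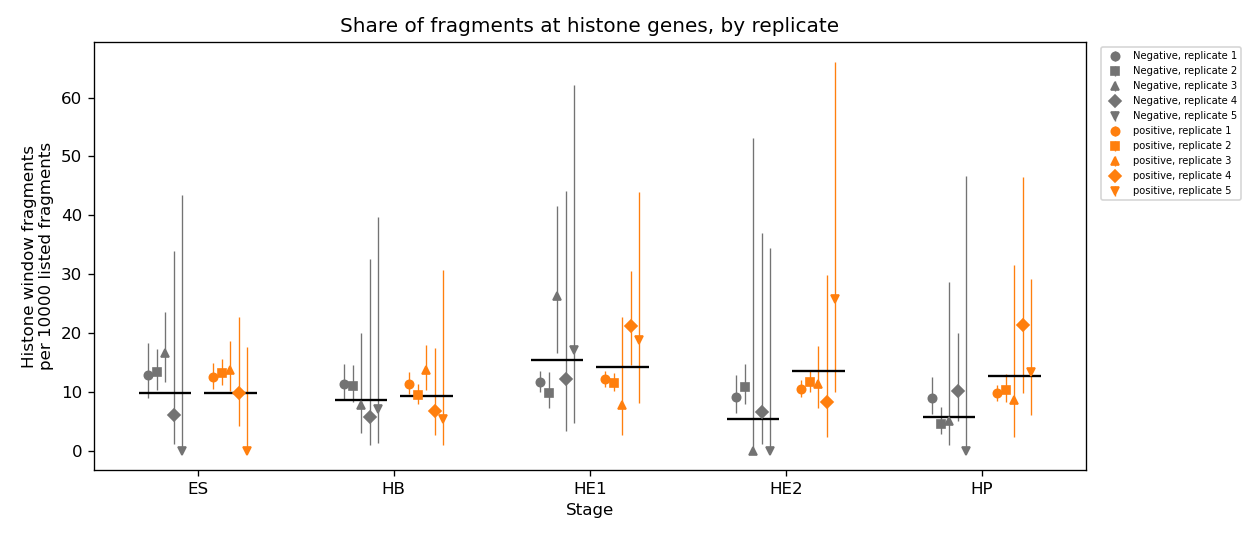
Histone window fragments per 10000 listed fragments (y axis) in the Negative and positive set of each replicate at each stage (x axis), with Wilson 95% intervals as thin lines and the mean of 5 replicates as a black bar. The intervals of replicates 4 and 5 span most of the axis, and at HE2 and HP the positive mean (13.5 and 12.7) lies above the Negative mean (5.29 and 5.72).

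The gates of activity were compared as High (Medium/High in replicate 5) against Low libraries. At HE2 the High libraries held 9.86, 10.9, 7.44, 0 and 15.5 histone window fragments per 10000 in replicates 1 to 5 and the Low libraries 11.5, 11.6, 19.8, 11.7 and 28.4. High was lower in 5 of 5 replicates, with means of 8.73 ± 5.69 and 16.6 ± 7.49 (SD, n = 5, exact permutation test, p = 0.0873, adjusted p = 0.437), and the last 3 replicates rested on 0 to 3 fragments per library. At the other stages the means of High and Low were 8.71 and 9.29 at ES, 9.54 and 9.84 at HB, 10.9 and 15.2 at HE1 and 9.61 and 9.80 at HP (exact permutation test, n = 5, adjusted p of at least 0.933). Without Low replicate 4, which shares fragments, the HE1 means were 10.9 and 13.4.

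Pooled over libraries, the gates of HP gave unlike shares. The Low libraries held 5.51 histone window fragments per 10000 (30 of 54495, Wilson 95% interval 3.86 to 7.86), the Negative 6.96 (5.38 to 9.02), the Medium 11.5 (9.57 to 13.8) the High 10.3 (8.76 to 12.2) and the single Medium/High library 13.4 (5.21 to 34.4). These pooled values treat all libraries of a gate as 1 sample and have no replicate error. Replicate 1 gave 34658 of the 54495 Low fragments. In replicates 1 to 5 the HP Low libraries held 4.04, 6.40, 0, 28.4 and 10.2 histone window fragments per 10000. Over replicates, the means of High and Low at HP were close, at 9.61 and 9.80, as given above.

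From stage to stage the share of histone fragments in positive cells did not change beyond the replicate spread. The mean at HE1 exceeded that at HB by 4.95 per 10000 (exact permutation test, n = 5, adjusted p = 0.540), and by 2.26 without the HE1 libraries that share fragments (adjusted p = 0.873). For the other neighbouring stages the later mean minus the earlier one was -0.499 per 10000 at HB, -0.785 at HE2 and -0.792 at HP (exact permutation test, n = 5, adjusted p = 0.873 for each). Without those libraries HE2 exceeded HE1 by 1.90. In the cloned material the 2 vectors held like shares, 7.99 ± 0.839 distinct fragments per 10000 in pDONR and 8.02 ± 0.545 in pSKB (SD, n = 5 lists, exact permutation test, p = 0.976). The highest plasmid share was that of pDONR from HP (9.17) and the lowest that of pDONR from HB (6.95).

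Single genes were tested with limma on log2 of fragments per 10000 with 1 added, over all protein-coding genes found in 4 or more of the 10 sets of a comparison. Between 10 and 49 histone genes passed that minimum in the 14 comparisons, from 10 in HP for the High and Low gates to 49 from HE1 to HE2. None was called at an adjusted p of 0.05 in any comparison, nor in those of HE1 without the libraries that share fragments, which does not show that levels were equal. Of all genes tested, 0% were called in 13 comparisons, and 0.00911% (1 of 10971) from ES to HB. At an unadjusted p of 0.05, 1 of 32 histone genes passed in HB positive against Negative cells (1.05% of all genes), 2 of 20 in HP positive against Negative cells (0.838%), 2 of 34 between ES and HB (2.51%), 2 of 39 between HB and HE1 (2.21%) and none in the other 10. In those 10 the share of all genes was 1.60% for positive against Negative cells at ES, 0.325% at HE1 and 0.458% at HE2. For High against Low it was 0.823% at ES, 0.438% at HB, 0.252% at HE1, 0.0132% at HE2 and 0.325% at HP. Between HE1 and HE2 it was 0.785%, and between HE2 and HP 1.07%.

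These counts were shaped by the minimum of 4 sets. Of the 7 passes, 5 were genes with fragments in 1 of the compared groups only, which met the minimum through the group where they were high, so their values are given as a description. They were named after their values were seen. In HB, Hist1h2af had 1, 1, 1, 1 and 0 fragments in the positive sets and none in the Negative sets. Between ES and HB the window of Hist1h2an and Hist1h2bp went from 4, 5, 2, 1 and 0 fragments to none, and between HB and HE1 that of Hist1h2ak and Hist1h2bn from none to 12, 13, 1, 1 and 0, or 12, 7, 1, 0 and 0 without the libraries that share fragments. Both windows, unlike Hist1h2af, belong to the genes with no fragment at HB and HP. In HP, the window of Hist1h2ah and Hist1h2bk had 9, 4, 1, 2 and 0 fragments in the positive sets and 2, 0, 0, 0 and 0 in the Negative sets, a log2 difference of 1.21 (limma, SE 0.60, adjusted p = 1.00). These counts come from lists of unlike depth. The HP positive sets listed 193427, 66597, 2308, 2805 and 4493 fragments, and the Negative sets 36011, 35143, 1969, 7918 and 818. The log2 difference is taken on shares, so the few fragments in the shallow positive sets of replicates 3 and 4 weigh heavily in it. With the replicate number as a block the histone passes fell to 0 at HB and to 0 at HP. Over all genes they went from 104 to 196 of 9934 at HB and from 67 to 55 of 7992 at HP. Without the HE1 libraries that share fragments, 0 of 35 histone genes passed between HB and HE1 (182 of 10800 over all genes). Between HE1 and HE2, 1 of 47 histone genes passed, Hist3h2a (63 of 10762 over all genes).

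The gene with the most fragments was not called in any comparison. In positive cells Hist1h4a had 12, 9, 3, 1 and 0 fragments in replicates 1 to 5 at ES, 11, 14, 3, 1 and 0 at HB, 9, 14, 1, 5 and 0 at HE1 (9, 2, 1, 2 and 0 without the libraries that share fragments), 12, 9, 0, 1 and 0 at HE2 and 18, 14, 1, 0 and 1 at HP. In Negative cells it had 1, 7, 1, 1 and 0 at ES, 9, 3, 1, 1 and 0 at HB, 18, 4, 2, 1 and 0 at HE1 (4, 1 and 0 in the replicates that share none), 3, 1, 0, 0 and 0 at HE2 and 11, 1, 0, 0 and 0 at HP. The ranges of the positive and Negative sets overlapped at all 5 stages. At the single locus of Hist4h4 the positive sets held 22, 23, 21, 18 and 21 fragments in sum at ES, HB, HE1, HE2 and HP, and the Negative sets 8, 11, 10, 7 and 6, from shallower lists. At HE1 without the libraries that share fragments, its positive sets held 9, 4, 0, 0 and 1.

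For related genes outside the group, the medians were higher, and this was not tested. The group itself had a median of 26, and its 57 genes with at least 50% unique sequence had 38. The 12 replication-independent histone genes, which are expressed outside S phase as well, held a median of 50.5 distinct fragments, from none at H3f3b to 382 at H2afv, the gene of an H2A.Z variant. The 22 genes for regulators and processing factors of histone transcripts held a median of 75, from none at Nfyc and Zfp473 to 205 at Casp8ap2, whose product FLASH takes part in histone mRNA processing. Npat had 133 fragments and Slbp 153.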

How the data were processed

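HM-1 derived cells of 5 stages were sorted by reporter activity, and their fragments were amplified by PCR and sequenced. According to the methods, the authors used TrimGalore for trimming and Bowtie2 for mapping to mm10, kept pairs of high mapping quality, combined 2 sequencings and removed duplicates. They then filtered against HM-1 controls, plasmid lists and open chromatin peaks and split the fragments into promoter and distal lists. SAMtools, bedtools and HOMER are also named in the submitters' processing notes. The sorted lists were deposited as intervals with no values (unit: other), so read depth per fragment is unknown, and a fragment counts the same whatever its reads. For plasmids and HM-1 controls, the deposited files give raw read counts per fragment, whole numbers without normalization. Here plasmid starts were moved by 1 bp to the scale of the sorted lists, since 3.19% of histone entries matched before and 84.0% after. Coordinates count from 1, and 1356 of 2288814 lines on other sequences were left out.

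Distinct fragments were counted in windows and scaled per 10000 distinct listed fragments. Totals were compared by permutation, exact and two-sided, with 252 splits (smallest p 0.00794), adjusted by Benjamini-Hochberg within each family. Single genes used limma 3.58.1 in R 4.3.3 (lmFit, eBayes with trend). Other values used Python 3.11.15, numpy 2.4.6, pandas 2.3.3 and scipy 1.17.1. Limma was checked on simulated Poisson counts with the sizes of the real sets. Of 200 genes raised 4-fold it called 0 to 6 per comparison, and of 200 raised 16-fold 58 to 170. A 4-fold change would thus mostly go uncalled, and a 16-fold change can be missed. The permutation test was checked on draws from a normal distribution. The reference was GRCm38.p6, the same assembly as mm10. Replicate numbers were held to pair samples where same-numbered sets deviated together (all 5 correlations above 0.1), which occurred in 3 of 14 comparisons: positive against Negative at ES and HB, and ES to HB.

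The genes named were the 3 with the most fragments per family, all outside Hist1, all without fragments, the testis genes and, of each other list, the genes with most and fewest. Others were named after seeing values. The members and lists were chosen with earlier results of these data known. Alternatives were fragment centres, a 500 bp window, promoter lists only, plasmid-matched fragments, log2 values, the replicate as a block, other poolings of gates, leaving out libraries, 0.25 added, no minimum, and, chosen after seeing the data, every transcript start and, for gates, stages and single genes, HE1 without the libraries that share fragments.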

Additional observations from a re-analysis of the deposited data

Results flagged for a closer look

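Groups of 5 sets or lists were examined for 1 value far from the other 4, in 22 groups, and 2 stood apart, where chance gives about 1 in 20. At HE2 the positive set of replicate 5 had 25.8 histone window fragments per 10000, against 8.19 to 11.6 in the other replicates, and rested on 4 of 1552 fragments. In the HP High group, replicate 4 had 0 of 921 fragments, against 9.76 to 13.4 per 10000 in the other replicates, and that count allows up to 32.6 per 10000.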

How the results depend on the processing

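Shallow sets limit these comparisons, since most sets of replicates 3 to 5 rest on a few histone window fragments, and differences below are per 10000 fragments. Of the values that answer a comparison, 278 kept their direction and side of the threshold under an alternative and 27 changed sign, none of these past the threshold. Only the HP difference between positive and Negative sets passed it, at 10.9 with plasmid-matched fragments (exact permutation test, adjusted p = 0.0397, and 0.0397 to 0.500 over its alternatives). Without 1 replicate, positive minus Negative ran from -0.850 to 0.793 at ES, -0.514 to 1.35 at HB, -3.65 to 3.24 at HE1, 3.81 to 10.0 at HE2 and 5.38 to 8.51 at HP. High minus Low ran from -1.57 to 0.290 at ES, -2.89 to 1.37 at HB, -6.41 to 0.256 at HE1, -9.67 to -6.62 at HE2 and -3.46 to 6.85 at HP. Later minus earlier stage ran from -1.98 to 0.309 for HB, 2.61 to 7.65 for HE1, -2.72 to 2.25 for HE2 and -4.29 to 2.11 for HP. High minus Low also changed sign at ES with Medium joined to High (0.533), at HB with a 500 bp window (1.37), the promoter lists as denominator (0.248) and log2 values (0.33), at HE1 with plasmid-matched fragments (1.57), and at HP with the 500 bp window (0.465), the promoter denominator (0.435), log2 values (0.24) and Medium joined to High (2.31). Between stages, HB minus ES was 0.0768 with the promoter denominator and 0.33 on log2 values, and with plasmid-matched fragments HE2 minus HE1 was 1.61 and HP minus HE2 0.0179. Without the HE1 libraries that share fragments, chosen after seeing the data for the comparisons of gates and stages, HE2 minus HE1 was 1.90. With starts as deposited, 3.19% of histone entries matched a plasmid fragment, since the sorted and plasmid starts are 1 bp apart. The cause was not tested for the other changes. With the replicate block, the difference between positive and Negative sets was 8.20 at HE2 and 6.97 at HP (exact sign-flip permutation test, adjusted p = 0.156 for both, smallest possible p 0.0625), and the pairing changed no call of a total or of a histone gene at an adjusted p. It took the histone genes at an unadjusted p under 0.05 from 1 to 0 at HB and from 2 to 0 at HP for positive against Negative. Over all genes the passes went from 104 to 196 at HB and from 67 to 55 at HP. Counting every transcript start, added after seeing the data, moved no total past the threshold.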
